A study of Mus musculus with 48 samples.

Results

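The 8 genes described here encode secreted proteins that carry metabolic signals out of liver and fat: Nrg4, Fgf21, Gdf15, Inhbe, Inhbc, Lect2, Ahsg and Fetub. They were chosen by symbol, as the 8 matching rows among the 30055 gene symbols of the deposited count table, and all 8 passed the filter on low counts in both tissues. Messenger RNA was sequenced from liver and visceral white adipose tissue (WAT) of male and female C57BL6/J mice, an inbred strain, bought from Charles River. From 8 weeks of age the animals received a regular diet (RD, Teklad chow) or a diet rich in fat (HFD, with fat giving 45% of the calories), and 2 cohorts were taken after 2 or 12 weeks. Each combination of tissue, diet, sex and time holds 3 libraries, which makes 16 groups and 48 libraries. The RD groups share strain, supplier and starting age with the HFD groups, and no allele or other agent is named. Weeks on diet, age and cohort cannot be told apart. The labels do not say whether the 3 libraries of a group came from separate animals, so p-values measure the spread between these libraries.

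Hepatokines are proteins that the liver releases into blood to act on other organs, and adipokines are their counterparts from fat. FGF21 is induced in liver by fasting, amino acid shortage and other stresses, and acts through FGF receptors with the co-receptor beta-klotho (Klb). GDF15 is a stress hormone that lowers food intake through the GFRAL-RET receptor in the hindbrain. NRG4 is an EGF-like ligand of ERBB4 and ERBB3, known best as a product of brown and white fat that signals to liver. Inhbe and Inhbc encode the activin E and activin C subunits, which belong to the TGF-beta family and are made mainly by hepatocytes. In fat, activin E acts on the receptor ALK7 (Acvr1c) and restrains lipolysis. Ahsg and Fetub encode fetuin A and fetuin B, plasma proteins of the cystatin superfamily. Fetuin A binds mineral and inhibits the insulin receptor, and fetuin B protects the egg coat from early hardening. LECT2 is a plasma chemotactic factor of hepatocytes that binds the receptors MET, TIE1 and CD209a.

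The genes lie in 6 places of the mouse genome (GRCm38, GENCODE annotation). Fgf21 occupies chromosome 7, 45613886 to 45615490, on the minus strand. Nrg4 spans 106.6 kb of chromosome 9 (55220222 to 55326844, minus strand). Its span holds the opposite-strand genes Fbxo22 and Gm15625. Inhbe (127348857 to 127354411) and Inhbc (127356322 to 127370431) are neighbours 1.91 kb apart on the minus strand of chromosome 10, both overlapped by the antisense gene Gm47200. Ahsg (22891277 to 22899449) and Fetub (22918334 to 22939778) are neighbours on the plus strand of chromosome 16, 18.9 kb apart, and Ahsg is overlapped by the antisense gene Gm30505. Lect2 lies on chromosome 13 (56542464 to 56548502) and Gdf15 on chromosome 8 (70629393 to 70632456). The libraries were stranded, but the sources used here do not say whether the counting used strand, so reads of Nrg4, Ahsg, Inhbe and Inhbc may not be fully separated from their antisense neighbours.

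The sequences before the starts of Fgf21 and Inhbe are shown because the levels of both genes moved together across liver libraries. All 8 genes matched the RefSeq promoter table (GRCm38.p6, 250 bases before to 50 after a start), with 2 starts listed for Fetub and for Gdf15. The core of the C/EBP-ATF response element, searched as TGATGNAA on both strands, was found before Fgf21 and Inhbe and in none of the other 8 windows of these genes. It occurs in 3.91% of the 32544 promoters of the table. Capitals mark the match, which reads on the opposite strand in both genes. In Fgf21 it covers bases -139 to -132 from the start and in Inhbe bases -181 to -174. The 30-base stretches around the match, 5′ to 3′ on the gene's strand, are chr7:45615611-45615640 and chr10:127352011-127352040. GENCODE places the RefSeq start of Inhbe inside the 5′ UTR of a longer first exon. The 250 bases before the Fgf21 start are chr7:45615491-45615740, minus strand.
Fgf21 match: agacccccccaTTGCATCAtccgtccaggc
Inhbe match: catcctctttcTTGCATCAtgcatgtccac
Fgf21 before start: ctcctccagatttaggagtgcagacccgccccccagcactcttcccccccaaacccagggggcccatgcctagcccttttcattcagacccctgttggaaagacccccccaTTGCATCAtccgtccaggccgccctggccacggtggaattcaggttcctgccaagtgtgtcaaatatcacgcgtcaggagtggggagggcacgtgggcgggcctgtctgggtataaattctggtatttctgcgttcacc

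The other motifs searched on both strands overlapped none of these matches. The E-box CACGTG, found in 7.17% of promoters, lies at -50 to -45 of Fgf21 and at -83 to -78 of the second Gdf15 start. The HNF1 half-site GTTAAT, found in 7.13%, lies at -78 to -73 of Lect2 and at -76 to -71 of the first Gdf15 start. HNF4 (CAAAGTCCA, 0.479%), STAT5 (TTCNNNGAA, 8.33%) and CRE (TGACGTCA, 1.80%) had no match in the 10 windows, which says only that these letters are absent there.

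Liver libraries held 50.9 to 80.1 M expected counts and WAT libraries 44.7 to 105.4 M. All 15 hepatocyte markers in liver and all 12 adipocyte markers in WAT had a median of at least 1 CPM (counts per M library counts) in every group. Summed adipocyte markers ran from 11620 to 42167 CPM over WAT libraries, the lowest being HFD female 1 at 2 weeks. Summed epididymis markers reached 3861 to 6042 CPM in the 3 RD male WAT libraries at 12 weeks, and 8554, 2809 and 8744 CPM in RD males 6 and 8 and HFD male 13 at 2 weeks. They were at or below 12.0 CPM in the other 18 WAT libraries. Summed ovary and uterus markers reached 534 CPM in an HFD female WAT library at 2 weeks (group median 13.5 CPM). They reached 461 CPM in an RD female WAT library at 12 weeks (group median 14.5 CPM), and 255 CPM in an HFD male WAT library at 2 weeks. Pancreas markers summed to 7774 CPM in the liver library of RD male 8 at 2 weeks and to 232 CPM in that of RD male 6. Levels below are CPM with library sizes scaled within a tissue (TMM), and ± after a log2 fold change is its SE. In bulk tissue, fewer cells of a type and less RNA per cell cannot be told apart.

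Averaged over the 8 groups of sex, diet and time, 7 of the 8 genes were higher in liver than in WAT and Nrg4 was higher in WAT. All 8 passed edgeR's quasi-likelihood test, as did 80.4% of the 18800 genes tested. The log2 fold change of liver over WAT was 10.23 ± 0.41 for Ahsg, 10.11 ± 0.27 for Inhbc, 9.64 ± 0.41 for Lect2 and 9.29 ± 0.32 for Fetub. It was smaller for the stress-responsive hormones, at 6.95 ± 0.21 for Inhbe, 5.29 ± 0.23 for Gdf15 and 4.34 ± 0.27 for Fgf21. Nrg4 stood at -2.07 ± 0.16, a 4.19-fold higher level in WAT (adjusted p 1.82e-14). The sizes depend on how the tissues are scaled to each other. With library totals and no scaling factors, a fit chosen after seeing the data, Nrg4 was 8.77-fold higher in WAT (-3.13) and Ahsg stood at 9.13, while the median over all genes moved from -0.17 to -1.24. All 8 genes kept their direction and their call in that fit. Per kb of exon, with each tissue scaled on its own, the order of medians in liver was Ahsg (3503 CPM per kb), Fetub (192), Lect2 (107), Inhbc (27.1), Gdf15 (11.6), Inhbe (4.83), Fgf21 (3.82) and Nrg4 (0.913). In WAT, Nrg4 led with 9.41 CPM per kb, Ahsg followed with 4.45, and the other 6 lay between 0.05003 and 0.572. The Inhbe value depends on a gene model of 5.32 kb that holds long UTRs.

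**Figure D1:**
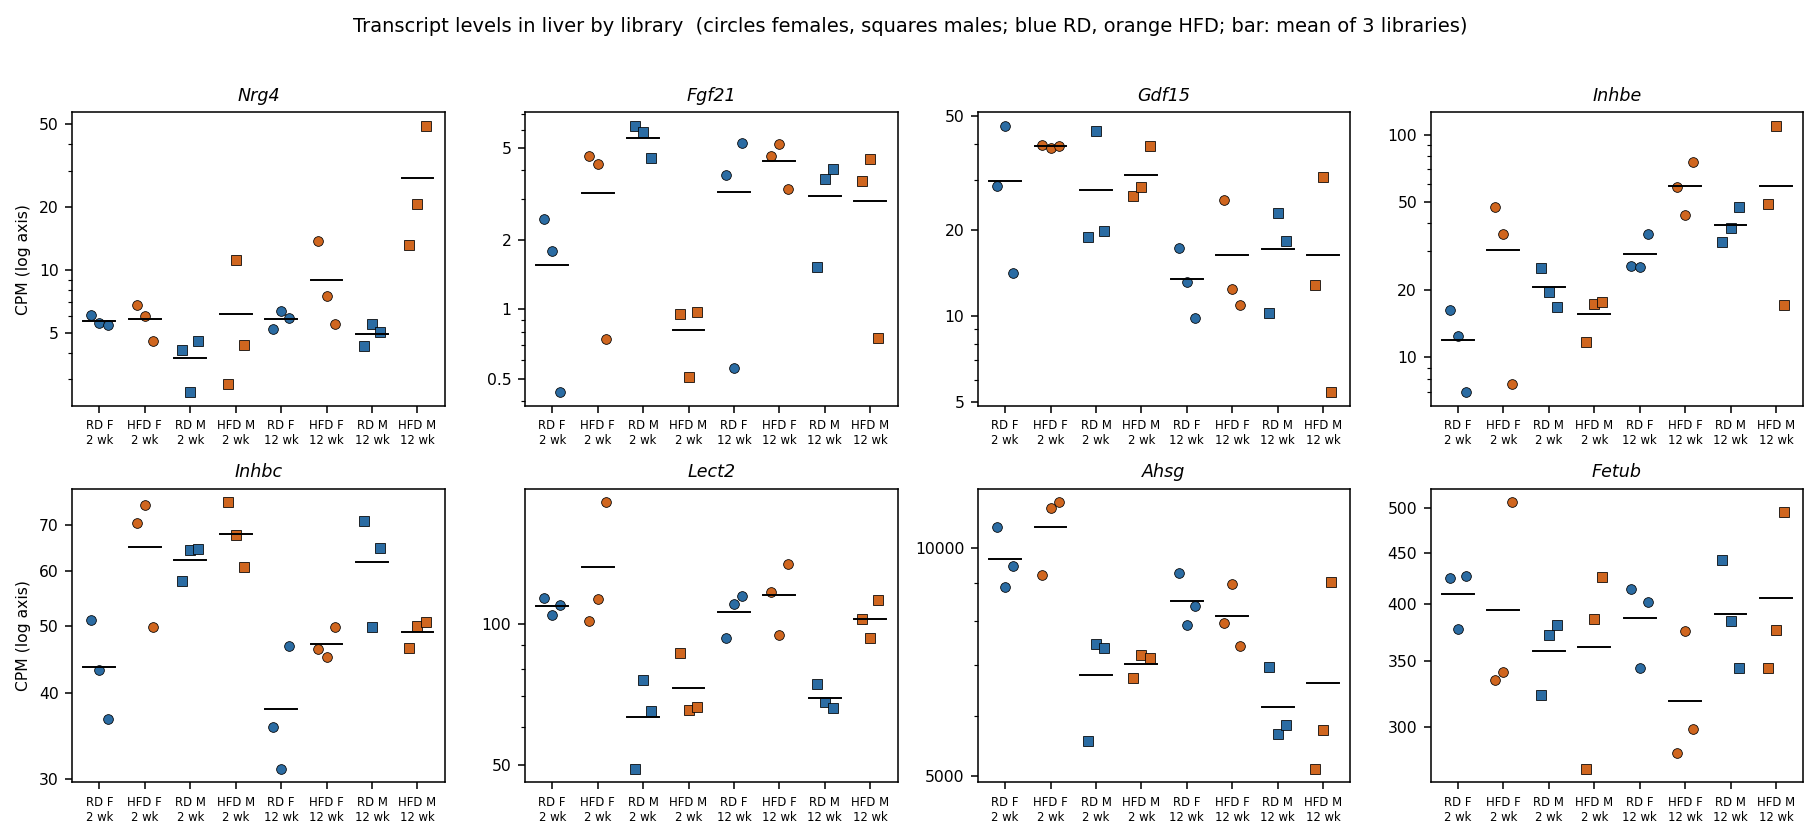
Level of each gene in every liver library, in CPM on a log axis that differs between panels, with circles for females, squares for males, blue for RD, orange for HFD and bars for the mean of 3 libraries. Nrg4 in HFD males at 12 weeks (13.1 to 49.2 CPM) lies above RD males of that time, and Lect2 is higher in females than in males on either diet at 2 weeks.

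In liver, Nrg4 rose on HFD in males after 12 weeks. RD males at 12 weeks had 4.31, 5.52 and 5.03 CPM, and HFD males had 13.1, 20.8 and 49.2 CPM. Every HFD library lay above every RD library, as it did for 2 of the 8 genes (Nrg4 and Lect2), beside 16.4% of all genes apart in either direction. Nrg4 had a log2 fold change of 2.48 ± 0.47 (5.57-fold, edgeR quasi-likelihood test with Benjamini-Hochberg adjustment over all genes, adjusted p 0.0142). Nrg4 was the only 1 of the 8 genes called in that contrast, in which 1.12% of the 15897 genes tested were called. Males at 2 weeks had 4.13, 2.58 and 4.58 CPM on RD and 2.85, 11.2 and 4.35 CPM on HFD (log2 fold change 0.70 ± 0.46, edgeR adjusted p 0.644). Females at 12 weeks had 5.21, 6.37 and 5.90 CPM on RD and 13.8, 7.51 and 5.48 CPM on HFD (0.62 ± 0.45, edgeR adjusted p 1). Females at 2 weeks had 5.42 to 6.05 CPM on RD and 4.55 to 6.79 CPM on HFD. These 3 contrasts overlapped and did not pass the test. The differences themselves did not pass either: the sex by diet interaction at 12 weeks was -1.86 ± 0.64 (edgeR adjusted p 0.520) and the diet by time interaction in males 1.78 ± 0.64 (edgeR adjusted p 0.277). Over all genes 0% and 0.352% passed these interactions. Of the 8 genes 0 passed by edgeR or DESeq2, and 2 had an unadjusted p under 0.05 in each.

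The liver of HFD male 4 at 12 weeks held the highest Nrg4 level of all 24 liver libraries. The same library had 3723 CPM of Hspa5, the chaperone BiP of the unfolded protein response, beside 764 and 1031 CPM in HFD males 2 and 3. It also had 12.6 CPM of Ddit3 (CHOP) and 15.5 CPM of Atf3, stress-response transcription factors, beside at most 6.16 and 4.25 CPM in those males. Without it the log2 fold change of Nrg4 was 1.75 with an edgeR adjusted p of 0.0519. Without RD male 2, 3 or 4 it was 2.36, 2.56 or 2.49, with edgeR adjusted p of 0.0566, 0.0672 and 0.0552. A fit of the 2 groups alone gave 2.48 (edgeR adjusted p 0.254), and DESeq2 gave an adjusted p of 8.33e-06. With the replicate number as a block the call was also lost (edgeR adjusted p 0.276). Summed macrophage markers were 121, 86.8 and 139 CPM in the HFD males and 213 to 247 CPM in the RD males. The part of these factors in the result was not tested.

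Nrg4 in the livers of HFD males at 12 weeks also passed the test against 2 other groups. On HFD at 12 weeks, the level was lower in females than in males (log2 fold change -1.63 ± 0.46, 3.10-fold, edgeR adjusted p 0.0188). It was the only member of the 8 called there, where 17.3% of genes were called. Females reached 13.8 CPM and the lowest male 13.1 CPM, so the groups overlapped, as they did for all 8 genes (35.4% of all genes did not). Without HFD male 4 the change was -0.90 (edgeR adjusted p 0.196), and without HFD female 6 or 7 it was -1.52 or -1.38 (edgeR adjusted p 0.0726 and 0.0931). With the 2 groups alone the edgeR adjusted p was 0.120. Summed macrophage markers were 366 to 404 CPM in these females and 86.8 to 139 CPM in the males, and their part in the result was not tested. Between HFD males at 2 and 12 weeks, Nrg4 was higher at 12 weeks (2.17 ± 0.47, 4.51-fold, edgeR adjusted p 0.00334). It stayed called with each of the 6 libraries left out, at changes of 1.43 to 2.94, and not with the 2 groups alone (edgeR adjusted p 0.121). In the time contrast of HFD males 2 of the 8 genes were called, Nrg4 and Inhbe, as were 17.1% of all genes. Nrg4, Lect2 and Inhbc did not overlap between those groups, beside 30% of all genes.

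Between the livers of HFD males, the acute-phase products Lcn2 and Hpx had higher means at 2 weeks than at 12 weeks. Lcn2, an iron-scavenging lipocalin, was at 826 ± 1340 CPM at 2 weeks and at 28.9 ± 36.8 CPM at 12 weeks (SD, n = 3, log2 fold change -4.84 ± 1.48, edgeR adjusted p 0.0312). Its SD exceeded its mean in both groups, so its libraries spread widely. Hpx, the haem carrier haemopexin, was at 10194 ± 6002 CPM and 2640 ± 821 CPM in those groups (SD, n = 3, log2 fold change -1.95 ± 0.32, edgeR adjusted p 3.11e-04). Whether this bears on the values of Nrg4, Fgf21, Inhbe, Lect2 or Ahsg in HFD males at 2 weeks was not tested.

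In WAT no diet contrast of Nrg4 passed the test. RD females at 12 weeks had 107, 85.8 and 65.3 CPM, and HFD females had 55.3, 37.9 and 36.0 CPM. RD males at 12 weeks had 72.1, 83.6 and 43.7 CPM, and HFD males had 40.1, 41.2 and 38.9 CPM. In both sexes the HFD libraries lay below every RD library, beside 28.6% (females) and 43.4% (males) of all genes apart in either direction. The log2 fold changes were -0.996 ± 0.39 in females (edgeR adjusted p 0.227) and -0.73 ± 0.39 in males (edgeR adjusted p 0.161). Summed ovary and uterus markers reached 461 CPM in an RD female library and at most 15.9 CPM in the HFD females, and their part was not tested. Summed epididymis markers were at least 3861 CPM in these RD males and at most 8.19 CPM in the HFD males, so diet and that tissue content cannot be told apart in the male contrast. Summed macrophage markers were 965 to 1203 CPM in the RD males and 3078 to 4033 CPM in the HFD males, and their part in the result was not tested. At 2 weeks the groups overlapped, with changes of -0.40 ± 0.39 in females and 0.07 ± 0.39 in males. The lowest WAT level, 27.98 CPM, was in the library with the fewest adipocyte marker counts, HFD female 1 at 2 weeks.

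Nrg4 was lower in liver than in WAT in 7 of the 8 groups of sex, diet and time. There the log2 fold change of liver over WAT ran from -2.91 to -1.17 and passed the test in each. The shares of all genes called in these 7 contrasts were 51.6% and 58.1% (RD females and males at 2 weeks), 52% and 63.1% (RD at 12 weeks), 54.9% and 61.2% (HFD at 2 weeks) and 56.1% (HFD females at 12 weeks). In HFD males at 12 weeks the fitted value was 0.48 ± 0.43 (edgeR adjusted p 0.344), in a contrast with 61% of genes called, and with library totals it was -0.77 (edgeR adjusted p 0.0822). With each tissue scaled on its own, male 4 had 49.2 CPM in liver, above the 3 WAT libraries (38.9 to 41.2 CPM). The other livers had 13.1 and 20.8 CPM, below them. With unscaled library totals, male 4 had 39.9 CPM in liver, within the range of the 3 WAT libraries (38.3 to 43.9 CPM). The diet effects in the 2 tissues were compared directly with a tissue by diet interaction, chosen after seeing the data. In males at 12 weeks the HFD over RD change of Nrg4 was 3.14 ± 0.62 log2 units higher in liver than in WAT (edgeR adjusted p 6.07e-04). It was the only 1 of the 8 genes called, beside 16.9% of the 18800 genes. The call held with each of the 6 label numbers of these males left out in turn (2.46 to 3.47, highest edgeR adjusted p 0.0138), and with library totals (3.07). The WAT libraries in it are those whose epididymis and macrophage markers differ between the diets, so diet and epididymis content cannot be told apart on that side. The interaction was 0.65 ± 0.61 in males at 2 weeks, 0.44 ± 0.61 in females at 2 weeks and 1.63 ± 0.61 in females at 12 weeks, with edgeR adjusted p of 0.817, 0.789 and 0.284. In those 3 contrasts edgeR and DESeq2 called 0 of the 8 genes, 1, 0 and 3 had an unadjusted p under 0.05, and 0.149%, 1.89% and 0.574% of all genes were called.

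In liver Fgf21 passed no contrast of diet, sex or time. Males at 2 weeks had 6.24, 5.85 and 4.52 CPM on RD and 0.950, 0.510 and 0.971 CPM on HFD. All 3 HFD libraries lay below all 3 RD libraries. In either direction 17.3% of genes did not overlap there. The log2 fold change was -2.77 ± 0.80 with an edgeR adjusted p of 0.147, in a contrast with 0 of the 8 genes (1 at an unadjusted p under 0.05) and 0.34% of all genes called. A fit of the 2 groups alone (adjusted p 0.0135) and DESeq2 (adjusted p 0.0216) called it. In females at 2 weeks the fitted value was positive and did not pass, with 2.46, 1.79 and 0.436 CPM on RD and 4.597, 4.27 and 0.740 CPM on HFD (1.05 ± 0.75, edgeR adjusted p 0.671). The sex by diet interaction at 2 weeks was 3.82 ± 1.09, with an edgeR adjusted p of 0.257 and a DESeq2 adjusted p of 0.0495. At 12 weeks the group means were 3.21 ± 2.41 (RD females), 4.37 ± 0.955 (HFD females), 3.09 ± 1.37 (RD males) and 2.94 ± 1.94 CPM (HFD males, each SD, n = 3). Those 4 groups overlapped, and the spread within a group was up to 75.0% of its mean.

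In WAT, Fgf21 rose on HFD in males at 12 weeks, from a level near the detection limit. RD males had 0.0420, 0.0817 and 0.263 CPM, from expected counts of 3.04, 5.05 and 16.8. HFD males had 0.582, 0.484 and 0.800 CPM, from 45.7, 33.4 and 44.6 counts. The groups did not overlap. Its log2 fold change was 2.26 ± 0.62 (4.77-fold, edgeR adjusted p 0.0137). It was the only 1 of the 8 genes called, in a contrast where 28.2% of the 18325 genes were called and 43.4% did not overlap. With the replicate number as a block, which pairs these 6 libraries, it was 2.53 with an edgeR adjusted p of 0.0546. The call was also lost without HFD male 4 (2.04, adjusted p 0.0531), without RD male 3 (2.02, adjusted p 0.0576) and with the 2 groups alone (edgeR adjusted p 0.0688). Beside it, summed macrophage markers were 3078 to 4033 CPM in HFD males and 965 to 1203 CPM in RD males. Summed epididymis markers were at most 8.19 CPM in the HFD males and at least 3861 CPM in the RD males, so diet and that tissue content cannot be told apart in this contrast. Females had 0.121 to 0.390 CPM on RD and 0.298 to 0.631 CPM on HFD over both times.

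**Figure D2:**
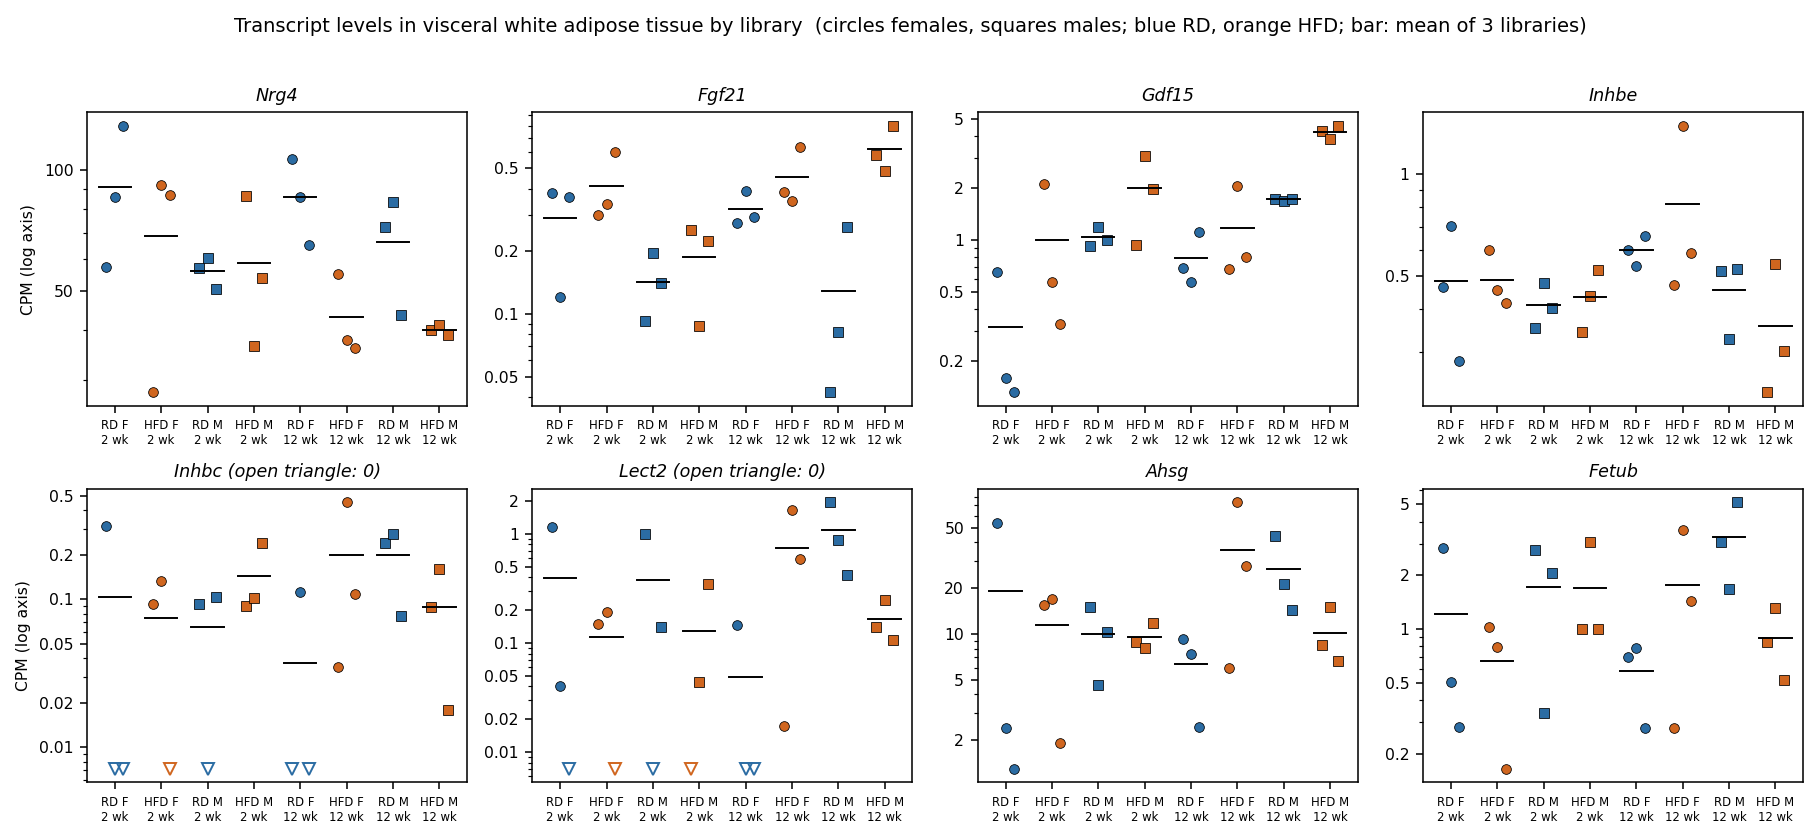
Level of each gene in every WAT library, in CPM on a log axis that differs between panels, with circles for females, squares for males, blue for RD, orange for HFD, open triangles for libraries at 0 and bars for the mean of 3 libraries. Fgf21 and Gdf15 in HFD males at 12 weeks lie above RD males of that time, and Nrg4 in HFD libraries of either sex at 12 weeks lies below RD.

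Gdf15 passed no contrast of sex, diet or time in either tissue. In liver its level fell into 2 ranges by cohort, with group means of 27.7 to 39.2 CPM at 2 weeks and 13.4 to 17.2 CPM at 12 weeks. The libraries overlapped: 14.2 to 46.3 CPM at 2 weeks and 5.41 to 30.7 CPM at 12 weeks. The 4 time contrasts (HFD females, RD females, HFD males, RD males) had log2 fold changes of -1.26, -1.14, -0.93 and -0.68, with edgeR adjusted p of 0.245 to 0.885. HFD females at 2 weeks had nearly equal levels, 39.5, 38.8 and 39.3 CPM. In WAT the highest levels were in HFD males at 12 weeks, at 4.25, 3.81 and 4.57 CPM, beside 1.74, 1.68 and 1.73 CPM in RD males. These 6 libraries did not overlap, beside 43.4% of all genes apart in either direction. The change was 1.29 ± 0.64 (edgeR adjusted p 0.136), and the fit of the 2 groups alone gave an edgeR adjusted p of 0.0190. Summed epididymis markers were at most 8.19 CPM in the HFD males and at least 3861 CPM in the RD males. Diet and that tissue content cannot be told apart in this contrast. Summed macrophage markers were 3078 to 4033 CPM on HFD and 965 to 1203 CPM on RD, and their part was not tested. The fitted female over male value was negative in the 4 WAT sex contrasts (-1.83 to -0.996), none of which passed edgeR (adjusted p 0.155 to 0.426). DESeq2 called the one on HFD at 12 weeks (adjusted p 0.0479). Summed macrophage markers there were 1720 to 2071 CPM in females and 3078 to 4033 CPM in males, and their part was not tested.

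Inhbe rose between 2 and 12 weeks in the livers of HFD males. The 2-week libraries had 11.7, 17.4 and 17.8 CPM and the 12-week libraries 48.8, 110 and 17.2 CPM. The groups overlapped through HFD male 4, the library with the highest Nrg4. The log2 fold change was 1.90 ± 0.57 (3.74-fold, edgeR adjusted p 0.0265). The call was lost without HFD male 3 at 12 weeks (1.08, adjusted p 0.213), without male 12, 13 or 14 at 2 weeks (1.70, 1.99 and 2.01, adjusted p 0.0981, 0.0740 and 0.0607) and with the 2 groups alone (edgeR adjusted p 0.133). Fitted changes over time were 0.94, 1.28 and 0.96 in RD males, RD females and HFD females, none of which passed. In those 3 contrasts 0 of the 8 genes were called by edgeR or DESeq2 and 0, 2 and 3 had an unadjusted p under 0.05, beside 0.233%, 0% and 0.0189% of all genes called.

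Diet contrasts of Inhbe in female livers had positive values that did not pass. Females at 12 weeks had 25.8, 25.6 and 35.9 CPM on RD and 58.5, 43.7 and 75.1 CPM on HFD, with no overlap (1.02 ± 0.55, edgeR adjusted p 1). That was the only 1 of the 8 genes without overlap in a contrast where 13.7% of genes did not overlap and 0.00629% were called. By edgeR, DESeq2 and an unadjusted p under 0.05, 0, 0 and 0 of the 8 genes passed it. Females at 2 weeks had 16.4, 12.5 and 6.96 CPM on RD and 47.3, 35.8 and 7.63 CPM on HFD (1.34 ± 0.56, edgeR adjusted p 0.437). With the replicate number as a block the latter was 1.52 (edgeR adjusted p 0.00805), but only numbers 1 and 2 are shared there. The labels do not say what the numbers mean, and same-numbered livers did not deviate together (r -1.52e-05 and -0.0488). Of the 8 genes 0 were called in female livers at 2 weeks by edgeR and by DESeq2, with 2 at an unadjusted p under 0.05 and 0.252% of all genes called. In WAT Inhbe stayed between 0.228 and 1.39 CPM, and no contrast passed.

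Inhbc, the neighbour of Inhbe, was lower in female than in male liver on RD at 12 weeks. Females had 35.7, 31.0 and 46.8 CPM and males 70.9, 49.9 and 64.8 CPM, with no overlap. Its log2 fold change was -0.71 ± 0.17 (1.63-fold lower in females, edgeR adjusted p 0.0110). It was 1 of 8 genes called there, where 8.81% of all genes were called and 35.4% did not overlap. The call was lost without RD female 7 (-0.58, adjusted p 0.0615), without RD male 2 (-0.61, adjusted p 0.0543) and with the 2 groups alone (edgeR adjusted p 0.05004). On RD at 2 weeks females had 51.0, 43.2 and 36.7 CPM and males 58.1, 64.4 and 64.8 CPM, again without overlap, like 6 of the 8 genes and 40.4% of all genes (-0.52 ± 0.17, edgeR adjusted p 0.0563). That contrast passed in 4 of 5 other fits, at adjusted p of 0.0204 to 0.0462. It passed in 0 of 6 fits with 1 library left out (edgeR adjusted p 0.0506 to 0.220). On HFD the fitted sex difference was -0.06 ± 0.17 at either time, with 95% intervals of -0.39 to 0.26 at 2 weeks and -0.39 to 0.27 at 12 weeks. The sex by diet interactions were 0.45 ± 0.24 at 2 weeks and 0.65 ± 0.24 at 12 weeks, with edgeR adjusted p of 0.562 and 0.557. By edgeR, DESeq2 and an unadjusted p under 0.05, 0, 0 and 2 of the 8 genes passed the interaction at 12 weeks.

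Lect2 was higher in female than in male liver at 2 weeks on either diet. On RD females had 114, 104 and 110 CPM and males 48.9, 75.8 and 65.1 CPM (log2 fold change 0.79 ± 0.19, 1.73-fold, edgeR adjusted p 0.0128). On HFD females had 101, 113 and 182 CPM and males 86.4, 65.5 and 66.4 CPM (0.86 ± 0.19, 1.81-fold, edgeR adjusted p 0.00553). Neither pair of groups overlapped. In those contrasts 1 and 2 of the 8 genes were called, beside 9.81% and 12.4% of all genes. On HFD, 2 of the 8 genes did not overlap, beside 26.7% of all genes. The RD call was lost without RD male 6 (0.63, adjusted p 0.0680), and the HFD call with the 2 groups alone (edgeR adjusted p 0.126). At 12 weeks on RD females had 93.1, 110 and 114 CPM and males 74.4, 68.1 and 65.9 CPM, without overlap (0.61 ± 0.19, edgeR adjusted p 0.0520). On HFD at 12 weeks the sexes overlapped, with 94.7 to 134 CPM in females and 93.02 to 112 CPM in males (0.17 ± 0.19, edgeR adjusted p 0.586). HFD males at 12 weeks had 102, 93.02 and 112 CPM, each above the 3 RD males, with a diet change of 0.56 ± 0.19 that did not pass (edgeR adjusted p 0.195). The sex by diet interaction at 12 weeks was -0.44 ± 0.27 (edgeR adjusted p 0.794).

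Ahsg, the most abundant of the 8 transcripts in liver, was higher in females than in males on HFD at 2 weeks. Females had 9217, 11294 and 11490 CPM and males 6722, 7225 and 7159 CPM, without overlap. The log2 fold change was 0.60 ± 0.18 (1.52-fold, edgeR adjusted p 0.0317). The call was lost with 5 of 6 single libraries left out (HFD females 2 and 5 and HFD males 12, 13 and 14, adjusted p 0.0582 to 0.102), with no filter on low counts (adjusted p 0.0581) and with the 2 groups alone (edgeR adjusted p 0.221). The 3 other sex contrasts had changes of 0.51 ± 0.18 (RD, 2 weeks), 0.47 ± 0.18 (RD, 12 weeks) and 0.29 ± 0.18 (HFD, 12 weeks), with edgeR adjusted p of 0.0777, 0.110 and 0.277. On RD no female library overlapped the males at either time. Diet changes lay between -0.07 and 0.14 with SE of 0.18, and the 95% intervals of the 4 contrasts lay within -0.42 and 0.49.

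Fetub was the steadiest of the 8 genes in liver. Its libraries ran from 272 to 507 CPM, a 1.86-fold range over all 24, and its group means from 319 to 410 CPM. No contrast passed the test. The largest fitted values were -0.34 ± 0.19 for sex on HFD at 12 weeks (edgeR adjusted p 0.214) and -0.31 ± 0.18 for time in HFD females (edgeR adjusted p 0.625). By comparison the library range was 2.25-fold for Ahsg, 2.43-fold for Inhbc and 3.71-fold for Lect2. It was 8.55-fold for Gdf15, 14.3-fold for Fgf21, 15.8-fold for Inhbe and 19.0-fold for Nrg4. Ordering the 8 liver groups of a gene by mean, neighbours without overlap occurred at 1 of 7 steps for Ahsg, Lect2 and Inhbe and at 0 of 7 for the other 5 genes.

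**Figure D3:**
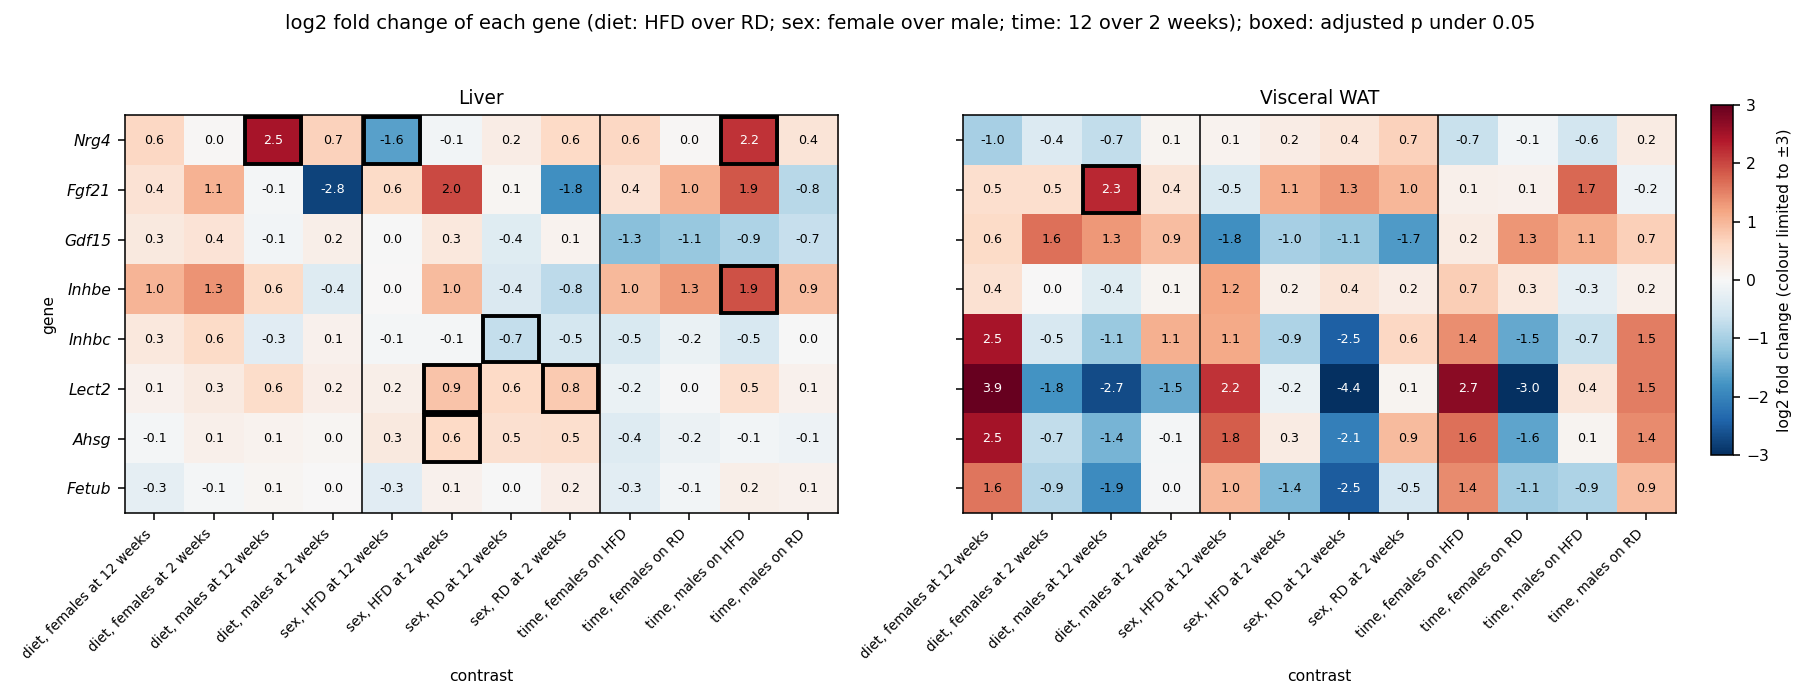
Fitted log2 fold change of each gene (rows) in each contrast of diet (HFD over RD), sex (female over male) and time (12 over 2 weeks), in liver on the left and WAT on the right, with colour limited to 3 in either direction and boxes for an adjusted p under 0.05. Liver holds 8 boxed values, 3 of them in Nrg4, and WAT holds 1, for Fgf21 in males at 12 weeks.

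In WAT the transcripts of Ahsg, Lect2, Inhbc and Fetub were followed beside albumin (Alb), the defining transcript of hepatocytes. Alb ran from 31.1 to 982 CPM over the WAT libraries, and from 37871 to 106925 CPM in liver. The count of each gene in WAT was divided by the count it would have at its liver ratio to Alb in the same group. The median of that quotient over 24 libraries was 0.937 for Ahsg, 1.04 for Lect2 and 0.859 for Inhbc. The hepatocyte plasma protein genes Apoa1, Ttr and Fgb had 1.14, 1.15 and 0.810. Over the 24 WAT libraries the correlation of log2 CPM with Alb was 0.95 for Ahsg, 0.86 for Lect2 and 0.82 for Inhbc, values that share library and depth. Lect2 and Inhbc were at 0 in 6 libraries each. The highest Ahsg level, 73.2 CPM, was in HFD female 6 at 12 weeks, the library with the highest Alb.

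Fetub had a quotient of 1.67, with a range of 1.01 to 7.13. Its 4 highest values in males, 7.13, 5.56, 3.73 and 3.54, were in RD male 4 at 12 weeks, HFD male 13 and RD males 6 and 8 at 2 weeks, all among the 6 libraries with epididymis transcripts. The other 2 of those libraries had 1.66 and 1.68, and RD female 2 at 2 weeks had 3.05. For Lect2 the 4 highest values were 7.54 in RD male 6 at 2 weeks and 5.91, 4.95 and 3.24 in RD males 2, 3 and 4 at 12 weeks. All are among the 6 libraries with epididymis transcripts, of which RD male 8 and HFD male 13 at 2 weeks had 1.40 and 0.461. HFD male 14 at 2 weeks, outside them, had 3.14. The part of epididymal tissue in the Fetub and Lect2 levels was not tested. Inhbe, Gdf15, Fgf21 and Nrg4 exceeded their liver ratio to Alb in every WAT library, with median quotients of 11.52, 36.0, 68.4 and 6881.

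**Figure D4:**
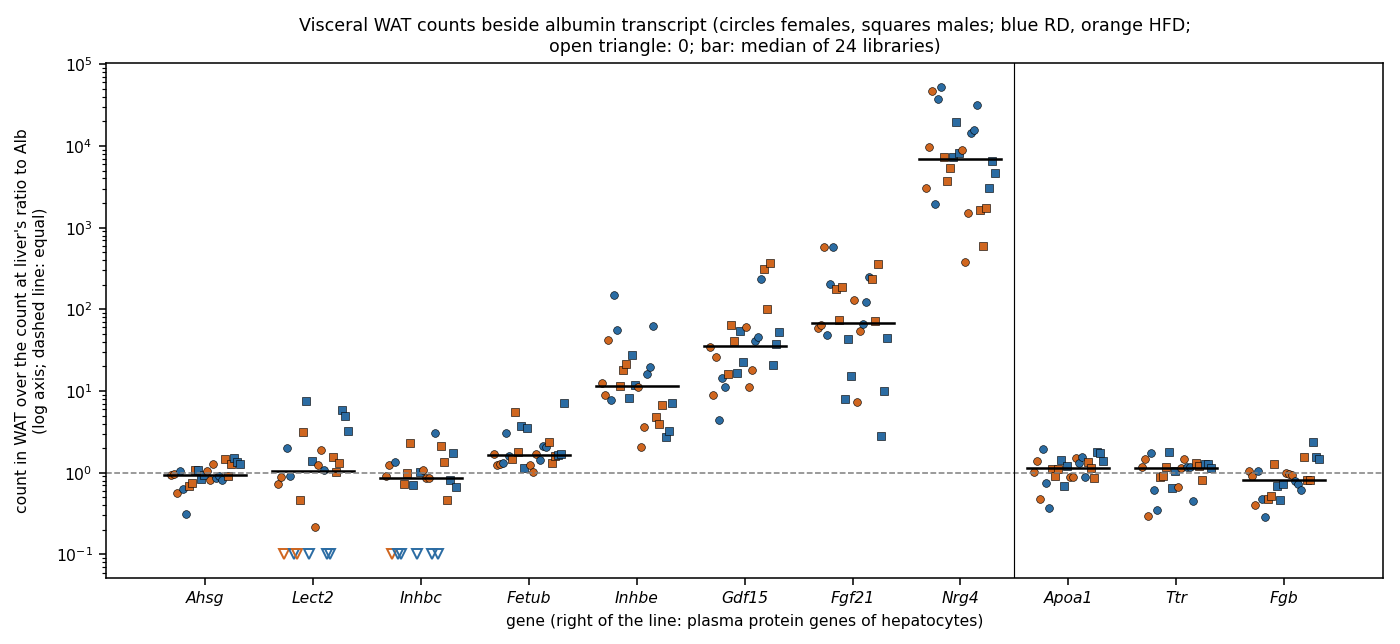
Count of each gene in every WAT library over the count expected at the liver's ratio of that gene to Alb, on a log axis, with circles for females, squares for males, blue for RD, orange for HFD, open triangles for libraries at 0 and bars for the median of 24 libraries. The medians of Ahsg, Lect2 and Inhbc sit near 1 like those of the hepatocyte genes Apoa1, Ttr and Fgb on the right. Single libraries of Lect2 run from 0 to 7.54, and Nrg4 has a median of 6881.

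Among the 8 genes, Fgf21 and Inhbe varied together across liver libraries, with r = 0.65 over 24 libraries and 0.73 after removing group means (log2 CPM). Both were low in HFD male 4 at 12 weeks (0.750 and 17.2 CPM) and in HFD female 5 and RD female 4 at 2 weeks (0.740 and 7.63 CPM, 0.436 and 6.96 CPM). Ahsg and Fetub, neighbours on chromosome 16, had r = 0.38 in liver and 0.70 after removing group means. In WAT, Nrg4 and Gdf15 ran in opposite order, at r = -0.73 and -0.82 after removing group means. The 3 HFD males at 12 weeks combined the highest Gdf15 with Nrg4 of 38.9 to 41.2 CPM, and RD female 4 at 2 weeks combined the highest Nrg4 (129 CPM) with the lowest Gdf15 (0.132 CPM). These correlations are descriptions over libraries that share depth and composition.

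**Figure D5:**
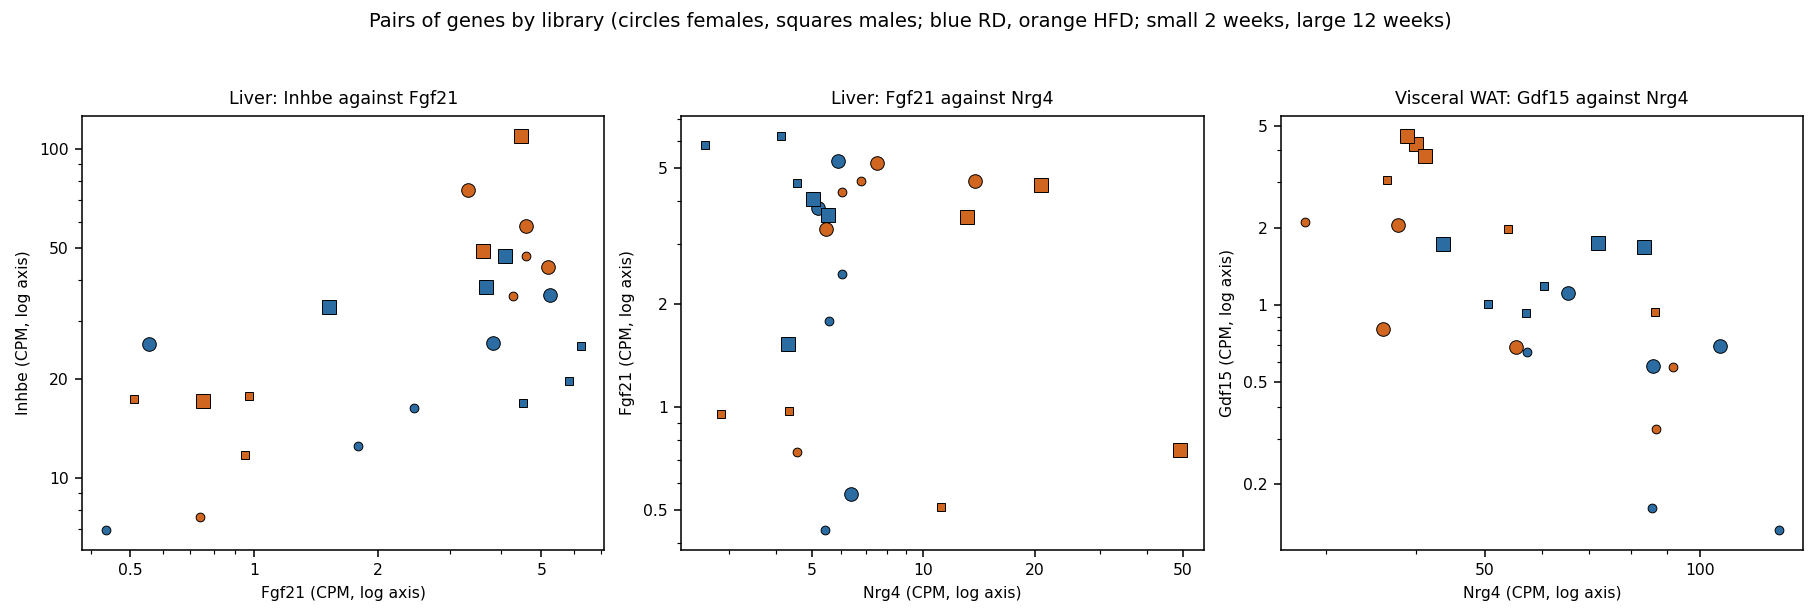
Levels of gene pairs in single libraries, in CPM on log axes: Inhbe against Fgf21 and Fgf21 against Nrg4 in liver, and Gdf15 against Nrg4 in WAT, with circles for females, squares for males, blue for RD, orange for HFD, and small and large symbols for 2 and 12 weeks. Inhbe tends to be higher where Fgf21 is higher (r = 0.65). RD males at 2 weeks depart from this, with the highest mean Fgf21 and 16.9 to 25.2 CPM of Inhbe. The liver of HFD male 4 sits alone at 49.2 CPM of Nrg4 and 0.750 CPM of Fgf21. Gdf15 in WAT tends to be lower where Nrg4 is higher (r = -0.73).

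The genes most like each member were listed by correlation over 24 libraries of a tissue among 10257 genes in liver and 11911 in WAT. The second value of each pair below is r after removing group means. For Nrg4 they were Ppl (r = 0.81 and 0.70) and Apoa4 (0.81 and 0.47) in liver. In WAT they were Vegfb (0.91 and 0.89), Aldh2 (0.90 and 0.94) and Amy1 (0.90 and 0.88). For Fgf21 in liver they were Mlst8 (0.86 and 0.80) and Zfp574 (0.78 and 0.75). Angptl4, an inhibitor of lipoprotein lipase, was in the fifth place (0.72 and 0.67). For Gdf15 in liver they were Nr0b2 (0.79 and 0.76), the bile acid-induced repressor SHP, and Pdp2 (0.77 and 0.65). In liver Inhbe was most like Mafg (0.83 and 0.82), Inhbc like Sumf1 (0.83 and 0.68) and Lect2 like Hpd (0.86 and 0.63). Ahsg was most like Fxyd5 (0.83 and 0.74) and Fetub like Eif3a (0.80 and 0.83). In WAT the list for Ahsg was Gc, Mat1a, Serpina1b, Ttr and Serpina1d, all hepatocyte products (0.98 each, and 0.98 to 0.99 after removing group means). Gc or further plasma protein genes also headed Lect2 (Gc, 0.89 and 0.88) and Inhbc (Ambp, 0.90 and 0.88). Gnmt headed Fetub (0.92 and 0.90).

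Few pathway genes around these hormones were called by diet in liver, where 1.12% of all genes were called in males at 12 weeks. In that contrast 1 of 16 genes of FGF21 reception and induction was called, Fgfr2, at 33.3 CPM on RD and 20.1 CPM on HFD (log2 fold change -0.73 ± 0.16, edgeR adjusted p 0.0236). Of 16 activin and inhibin genes 1 was called, Inhba, the activin A subunit, which fell from 26.5 to 10.5 CPM (-1.33 ± 0.30, edgeR adjusted p 0.0362). Of 20 integrated stress response targets 1 was called, Ddit3, which rose from 4.14 to 8.26 CPM (0.99 ± 0.23, edgeR adjusted p 0.0407). Of 19 other PPAR alpha targets 1 was called, Cidec, a lipid droplet protein, which rose from 5.98 to 27.4 CPM (2.20 ± 0.47, edgeR adjusted p 0.0279). Of 30 other hepatokines 1 was called, Apoa4, which rose from 234 to 846 CPM (1.85 ± 0.34, edgeR adjusted p 0.0120). The other 7 lists (ERBB, unfolded protein response, insulin receptor, cystatin, LECT2 and GDF15 receptors, adipokines, thermogenic fat) added no call. With each of the 6 libraries left out in turn these counts of 1 ran from 0 to 1, and without HFD male 3 all were 0. In the other 3 liver diet contrasts, 2 genes of these 12 lists were called, both in males at 2 weeks. List medians in males at 12 weeks ran from -0.98 (thermogenic) to 0.30 (PPAR alpha), beside 0.02 over all genes.

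Sex moved more of these genes in liver, as it did over all genes. On HFD at 12 weeks females had less of 9 of 18 unfolded protein response genes and more of 0, beside 17.3% of all genes called, including Xbp1 (122 CPM in females and 373 in males), Hspa5 (652 and 1839) and Dnajb9 (42.8 and 117). The list median was -1.03 beside 0.01 over all genes, and the male mean of Hspa5 holds 3723 CPM of HFD male 4 beside 764 and 1031 CPM. Without HFD male 4, edgeR called 0 of the 18 genes and the list median was -0.35. The count was also 0 without HFD female 3 or HFD female 7, and 13 without HFD male 2. On HFD at 2 weeks 11 of 19 PPAR alpha targets were higher in females and 0 lower, beside 12.4% of all genes called, led by Acot3 (76.8 and 0.267 CPM) and Cyp4a14 (1301 and 17.0 CPM), with a list median of 0.76 beside 0.05. Among ERBB genes, Egfr was lower in females in all 4 sex contrasts (log2 fold change -2.36 to -1.67). Among hepatokines, Hamp2, a hepcidin, was higher in females by 4.94 to 5.68 log2 units in the same contrasts. Asns, which makes asparagine, was lower in females and Vldlr, a lipoprotein receptor, higher in females in all 4.

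In WAT of males at 12 weeks 28.2% of all genes were called. The share called was above that in the ERBB, FGF21, unfolded protein response and adipokine lists and below it in the other 8 lists. Of 14 ERBB genes 3 rose and 4 fell, among them Adam17, a sheddase of ERBB ligands, which rose from 39.9 to 91.2 CPM (log2 fold change 1.19 ± 0.14), and Erbb3, which fell from 33.3 to 1.89 CPM (-4.14 ± 1.16). Of 16 FGF21 pathway genes 3 rose and 3 fell, with Fgfr2 falling from 38.5 to 8.86 CPM and Fgfr4 from 8.06 to 0.130 CPM. Summed epididymis markers were at 3861 CPM or more in these RD libraries and at 8.19 CPM or less in the HFD libraries. Diet and that tissue content cannot be told apart for any gene of this contrast. Summed macrophage markers were 965 to 1203 CPM on RD and 3078 to 4033 CPM on HFD, and their part in these values was not tested. Of 16 activin genes 3 rose and 0 fell, and of 18 unfolded protein response genes 7 rose and 0 fell. Of 20 integrated stress response targets 4 rose and 1 fell, including Atf3 (22.1 to 93.7 CPM). Atf3 had 8.70, 7.01 and 50.7 CPM in the RD libraries. Of 19 PPAR alpha targets 4 rose and 0 fell, led by Cpt1a, Plin2 and Pdk4. Of 18 adipokines 3 rose and 3 fell, with Cfd falling from 4015 to 557 CPM. Of 30 hepatokines 2 rose and 4 fell, of 10 insulin pathway genes 2 rose, of 8 thermogenic genes 1 rose, and of 4 receptor genes Met fell (-0.70 ± 0.22). These counts depend on single libraries. With each of the 6 left out in turn, PPAR alpha targets that rose stayed at 4. The unfolded protein response count ran from 2 (without HFD male 4 or RD male 4) to 8, ERBB genes that fell from 0 (without HFD male 2) to 4, and FGF21 pathway genes that rose from 0 (without HFD male 4) to 3. The co-receptor Klb had 52.4, 48.6 and 48.5 CPM on HFD and 56.2, 53.0 and 22.3 CPM on RD.

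In WAT of females at 12 weeks 0 of the 8 genes were called by edgeR and by DESeq2, with 2 at an unadjusted p under 0.05, beside 2.08% of all genes called. Around them, Lep, the satiety hormone leptin, rose from 272 to 2733 CPM (log2 fold change 3.33 ± 0.52, edgeR adjusted p 0.00179), and Sfrp5 rose from 3.85 to 241 CPM (5.96 ± 0.59, edgeR adjusted p 2.83e-05). Ret, the signalling partner of GFRAL, rose from 12.9 to 101 CPM (2.96 ± 0.37, edgeR adjusted p 2.34e-04). The thermogenic genes Dio2 and Ppargc1a fell, by 2.47 and 2.07 log2 units. Summed ovary and uterus markers reached 461 CPM in an RD library of this contrast and at most 15.9 CPM on HFD. Their part in these values was not tested. In WAT of females and males at 2 weeks 0 of the 8 genes were called by edgeR or DESeq2, with 1 and 0 at an unadjusted p under 0.05, beside 0.235% and 0% of all genes. Apart from the contrast of males at 12 weeks, edgeR called 0 of the 8 genes in the sex and time contrasts of WAT, in which 3.8% (HFD) and 4.28% (RD) of genes were called by sex at 2 weeks, 2.85% and 10.6% at 12 weeks, and by time 12.1% in HFD males, 1.51% in HFD females and 0% on RD. There 0 to 3 of the 8 genes had an unadjusted p under 0.05, and DESeq2 called Gdf15 (sex, HFD at 12 weeks), Fetub (sex, RD at 12 weeks, adjusted p 0.0341) and Fgf21 (time, HFD males, adjusted p 0.0205). On RD at 12 weeks summed epididymis markers were at least 3861 CPM in males and at most 3.02 CPM in females. Sex and that tissue content cannot be told apart there. Summed macrophage markers were 1373 to 1565 CPM in HFD males at 2 weeks and 3078 to 4033 CPM at 12 weeks. In HFD females at 12 weeks they were 1720 to 2071 CPM, and their part in these calls was not tested.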

How the data were processed

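Messenger RNA of 24 liver and 24 WAT libraries was measured by stranded poly(A) RNA-seq. The deposited values are expected counts per gene symbol; kallisto, GRCm38, edgeR and DESeq2 appear in the submitters' processing notes, with no roles or versions. How transcripts were summed to genes and whether strand was used are not given in the sources used here. The expected counts were rounded to whole numbers and, within a tissue, filtered with filterByExpr (15897 liver and 18325 WAT genes left, 18800 over both tissues) and scaled by TMM. All 8 groups of a tissue entered one robust quasi-likelihood fit (edgeR 4.0.16, limma 3.58.1, R 4.3.3), with Benjamini-Hochberg adjustment over all genes and a threshold of 0.05. The SE is the log2 fold change divided by the square root of F, an approximation. Tables were made with Python 3.11.15 and pandas 2.3.3.

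The comparisons were diet, sex, time and sex by diet. Diet by time and tissue by diet were added after seeing the data. Comparisons share control samples. Members and the 12 pathway and 11 marker lists were chosen with earlier results of these data known. Named pathway genes are the 3 called genes with the lowest p per list and contrast, or fewer, and likeness lists hold 5 genes. Klb, Hspa5, Atf3, Trib3, Lcn2, Hpx and Alb were also named, chosen after their values were seen. Deviations of same-numbered libraries from their group means correlated at r 0.108, 0.134 and 0.154 in WAT of males at 12 weeks. In their livers r was -0.112, 0.0505 and 0.127. The labels do not say what the numbers mean. Other fits used median-of-ratios factors, library totals (both tissues together, added after seeing the data), no filter, no robust step, the compared groups alone, DESeq2 1.42.0, a replicate block, and each library left out. The fits were tested on simulated data. No 2 libraries were identical.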

Additional observations from a re-analysis of the deposited data

Results flagged for a closer look

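The diet effect on Nrg4 in males at 12 weeks differed between the tissues by a direct test of that difference. The log2 change of HFD over RD was 3.14 ± 0.62 higher in liver than in WAT (edgeR adjusted p 6.07e-04, interaction chosen after seeing the data). In liver all 3 HFD males lay above the 3 RD males (13.1 to 49.2 against 4.31 to 5.52 CPM), and in WAT all 3 lay below (38.9 to 41.2 against 43.7 to 83.6 CPM). In the liver of HFD male 4 Nrg4 was at 49.2 CPM and in the other 2 at 13.1 and 20.8 CPM. In WAT, summed epididymis markers were 3861 to 6042 CPM in the RD males and at most 8.19 CPM in the HFD males, and summed macrophage markers 965 to 1203 and 3078 to 4033 CPM. Diet and epididymis content cannot be told apart in that tissue, and the part of the macrophage content was not tested.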

How the results depend on the processing

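No called change reversed direction. With library totals in place of TMM factors over both tissues, chosen after seeing the data, the counts of called members were as before, and the uncalled liver over WAT value of Nrg4 in HFD males at 12 weeks moved from 0.48 to -0.77. The count of the 8 genes called moved as follows. With the compared groups alone it was 0 in place of 1 for liver diet in males at 12 weeks and for liver sex on HFD at 12 weeks, and 0 in place of 2 for liver sex on HFD at 2 weeks and for time in HFD males. It was 1 in place of 0 for liver diet in males at 2 weeks and WAT sex on RD at 12 weeks, and 2 in place of 1 for liver sex on RD at 2 weeks and WAT diet in males at 12 weeks. DESeq2 gave 1 in place of 0 for liver diet in males and sex by diet at 2 weeks, WAT sex on HFD and on RD at 12 weeks and WAT time in HFD males, and 2 in place of 1 for liver sex on RD at either time. Without the filter it was 1 in place of 2 for liver sex on HFD at 2 weeks and 2 in place of 1 for liver sex on RD at 2 weeks, as with median-of-ratios factors. With the replicate block it was 0 in place of 1 for diet in males at 12 weeks in liver and in WAT, and 1 in place of 0 for liver diet in females at 2 weeks. The labels do not say what the numbers mean, and same-numbered livers of these groups showed little shared deviation. With the block Nrg4 in male livers was 2.26 (edgeR adjusted p 0.276). The block changed no other call. With each library left out, the count ran from 0 to 1 for diet in males at 12 weeks in both tissues and for liver sex on HFD at 12 weeks and on RD at either time, and from 1 to 2 for liver sex on HFD at 2 weeks and time in HFD males. At 3 libraries a group, Fgf21, Lect2 and Inhbc in WAT rest on few counts per library.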
